A study of Homo sapiens with 4 samples.

Results

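Inside genes of 300 kb or longer, as inside shorter genes, fewer Pol II peaks were called in the NKAP KD library than in the control library. Peaks at annotated start sites within the long genes were found in both lists more often than the other peaks there. RNA polymerase II (Pol II) had been profiled by ChIP-seq, the sequencing of DNA pulled down with an antibody, in U2OS, a human osteosarcoma line, 48 h after transfection with an siRNA against NKAP (NKAP KD) or with a control siRNA. Fixation was in 1% formaldehyde over 10 min in all samples, and each group had 1 ChIP library and 1 input library. The 2 ChIP peak lists were analysed and no input file was used here. With 1 library a group, no difference had a replicate check, no test was made, and what follows compares these libraries. The intervals are 95% intervals over peaks or genes. They cover counting error only, and neighbouring peaks are not independent.

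A peak was taken when its summit lay over 1000 bp inside both ends of a RefSeq protein-coding gene (GRCh38) of at least 300000 bp and over 1000 bp from every end of other protein-coding genes. There were 1131 such peaks of 26387 used (4.29%) in the NKAP KD list and 1930 of 36345 (5.31%) in the control list, a ratio of 0.586. Genes under 300 kb held 6711 NKAP KD (25.4%) and 11390 control (31.3%) interior peaks. The ratio was 0.571 in genes under 100 kb and 0.636 from 100 to 300 kb, so the lower count was not particular to long genes. The NKAP KD peaks of the set lay in 410 and the control peaks in 493 of the 771 long genes. The gene table gives gene spans and start sites but no exons, so exonic and intronic summits could not be told apart. At the length threshold, the 20 shortest genes taken (300038 to 305411 bp) held 21 NKAP KD and 25 control peaks. The 20 longest genes left out (295191 to 299895 bp) held 9 NKAP KD and 13 control peaks by the same margins.

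Very long genes are mostly intron, and a polymerase that enters one needs hours to reach its end. Many of them encode adhesion, synaptic, cytoskeletal and transcription proteins, have several alternative promoters, and include the genes at common fragile sites. NKAP is a nuclear protein that binds RNA and takes part in splicing, and U2OS cells are widely used for work on transcription and DNA damage.

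By estimate, the NKAP KD ChIP library was 0.858 times as deep as the control one, and its peaks were called at 0.794 times the control depth. Summits carried a median of 19 reads in the NKAP KD list and 18 in the control list, with a lowest value of 8 in each, and both lists ended near a −log10 q-value of 3 (3.02 in NKAP KD and 3.01 in control). A gene without a peak can therefore hold Pol II below that limit. Of 12 osteoblast-lineage markers, 5 had a peak at a gene end, in the NKAP KD and the control list alike (SP7, COL1A1, SPARC, BGLAP and MSX2), whereas RUNX2, COL1A2, ALPL, IBSP, SPP1, POSTN and DLX5 had none in either. Markers of other cell types with a gene-end peak, the same in both lists, were 6 of 8 for neurons, 1 of 7 for hepatocytes, 0 of 7 for lymphocytes and 1 of 6 for keratinocytes. NKAP itself, at chrX:119920672-119943751, which is too short to belong to the set, had a peak at a gene end in each list (fold 6.90 in the NKAP KD list and 6.07 in the control list), and an siRNA acts on the transcript, so this does not check the knockdown.

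The start sites below, inside long genes, are shown because many of the strongest shared peaks lay at such sites, and the last because only the control list had a peak there. They were picked after their values were seen. Each line gives the 250 bases before and the 50 bases after the annotated start (RefSeq, GRCh38.p14), read 5′ to 3′ along the strand of the start. Capitals mark 4 motifs searched on both strands, the GC box GGGCGG, the TATA box TATAAA, the CCAAT box CCAAT and the AP-1 site TGANTCA. Of all 34961 start windows of the RefSeq table, 45.0% held the GC box, 11.5% the TATA box, 34.6% the CCAAT box and 7.68% the AP-1 site. A match describes the letters and is no evidence of binding.
NAV2 internal start, chr11:19712587-19712886, + strand: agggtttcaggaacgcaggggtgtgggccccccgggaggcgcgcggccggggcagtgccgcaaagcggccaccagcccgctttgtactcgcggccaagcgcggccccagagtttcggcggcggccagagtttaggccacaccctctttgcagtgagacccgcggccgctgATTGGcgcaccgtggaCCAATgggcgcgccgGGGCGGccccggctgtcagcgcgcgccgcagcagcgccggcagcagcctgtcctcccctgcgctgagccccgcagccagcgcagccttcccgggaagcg
PALLD internal start, chr4:168631328-168631627, + strand: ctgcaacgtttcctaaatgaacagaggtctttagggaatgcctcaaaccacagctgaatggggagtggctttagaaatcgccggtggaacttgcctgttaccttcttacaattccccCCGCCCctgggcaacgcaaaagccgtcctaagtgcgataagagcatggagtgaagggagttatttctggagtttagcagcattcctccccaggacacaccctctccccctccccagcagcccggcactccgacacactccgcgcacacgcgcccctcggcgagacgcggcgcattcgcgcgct
TENM3 internal start, chr4:182143713-182144012, + strand: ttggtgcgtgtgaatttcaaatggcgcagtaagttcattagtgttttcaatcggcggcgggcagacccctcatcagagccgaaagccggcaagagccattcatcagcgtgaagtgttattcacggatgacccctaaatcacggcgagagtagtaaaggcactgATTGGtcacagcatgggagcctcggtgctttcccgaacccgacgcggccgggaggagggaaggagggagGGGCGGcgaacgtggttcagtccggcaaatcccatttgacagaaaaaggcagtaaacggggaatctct
DLGAP1-AS2 start inside DLGAP1, chr18:3603487-3603786, + strand: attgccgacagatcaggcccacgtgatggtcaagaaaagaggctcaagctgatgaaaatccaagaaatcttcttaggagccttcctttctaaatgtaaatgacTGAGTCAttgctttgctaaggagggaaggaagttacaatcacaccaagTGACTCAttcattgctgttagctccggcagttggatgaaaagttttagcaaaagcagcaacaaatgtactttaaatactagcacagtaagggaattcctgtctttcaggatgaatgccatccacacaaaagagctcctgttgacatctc
TENM2 internal start, chr5:167754679-167754978, + strand: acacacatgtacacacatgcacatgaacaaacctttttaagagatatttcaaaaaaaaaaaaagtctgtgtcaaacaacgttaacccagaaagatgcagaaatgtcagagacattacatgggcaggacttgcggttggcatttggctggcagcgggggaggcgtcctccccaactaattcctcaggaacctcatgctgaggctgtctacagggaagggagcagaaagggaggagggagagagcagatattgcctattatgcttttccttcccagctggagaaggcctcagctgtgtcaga
LUARIS start inside HECW1, chr7:43522493-43522792, − strand: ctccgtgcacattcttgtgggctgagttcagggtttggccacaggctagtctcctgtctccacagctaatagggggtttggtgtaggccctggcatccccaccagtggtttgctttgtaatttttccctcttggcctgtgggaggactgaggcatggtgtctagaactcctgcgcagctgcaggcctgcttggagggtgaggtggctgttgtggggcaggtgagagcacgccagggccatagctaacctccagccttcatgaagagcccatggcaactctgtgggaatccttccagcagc

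The fold enrichments below are the authors' values from their peak caller, each relative to its own list's background. The NAV2 start (neuron navigator 2, a microtubule-associated protein of axon growth), 367601 bp into the gene, carried a peak of fold 25.8 (57 reads at the summit) in the NKAP KD list and 30.0 (68 reads) in the control list. Its window was 74.3% G and C and held 1 GC box and 2 CCAAT boxes. The PALLD start (palladin, an organiser of actin filaments), 134526 bp into the gene, had folds of 15.8 (33 reads) in the NKAP KD list and 34.7 (74 reads) in the control list. Its peak was 1291 bp wide in the NKAP KD list and 5549 bp wide in the control list.

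The TENM3 start, 696350 bp into the gene of teneurin 3, had nearly equal folds of 16.7 in the NKAP KD list and 16.3 in the control list, from 33 NKAP KD and 34 control reads. The DLGAP1-AS2 start, of a noncoding RNA that runs against DLGAP1 (a scaffold of the postsynaptic density), had folds of 20.7 from 60 reads in the NKAP KD list and 24.6 from 78 reads in the control list. Its window was 42.0% G and C, with no GC box and 2 AP-1 sites. At the TENM2 start the fold was 5.23 from 16 reads in the NKAP KD list and 17.7 from 49 reads in the control list, and the peak was 626 bp wide in the NKAP KD list and 6643 bp in the control list. The LUARIS start, a noncoding RNA read against HECW1 (a ubiquitin ligase), had a control peak of fold 15.0 with 44 reads. No NKAP KD peak overlapped it, and the nearest lay 48205 bp away. None of the motifs was found in the TENM2 and LUARIS windows.

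Across all the peaks inside long genes, most NKAP KD peaks had a control counterpart and most control peaks had no NKAP KD counterpart. A control peak overlapped 833 of the 1131 NKAP KD peaks (73.7%, interval 71.0 to 76.1%), with a shared base as the minimum. An NKAP KD peak overlapped 728 of the 1930 control peaks (37.7%, 35.6 to 39.9%). Not overlapped were thus 298 NKAP KD peaks (26.3%; 17.2% of all NKAP KD peaks) and 1202 control peaks (62.3%; 45.8% of all control peaks). Both shares exceeded those over the whole lists, but the peaks inside long genes were also weaker, with a median of 16 summit reads in each list. With only the strongest 10000 peaks of each list the ratio of peak counts was 0.907 and 59.3% of control peaks were overlapped, and with only the strongest peak of each gene 60.4% were. A reciprocal overlap of 50% left 34.2% of NKAP KD and 20.2% of control peaks.

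Interior peaks of shorter genes gave nearly the same totals. Of 6711 NKAP KD peaks inside genes under 300 kb, 76.6% were overlapped, a difference of −2.92 points for the long genes (−5.75 to −0.236). Of 11390 such control peaks 37.1% were overlapped, a difference of 0.600 points (−1.71 to 2.96) that did not exceed counting error. Among the strongest 10000 peaks of each list the control difference was −13.6 points.

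In the control list, long and shorter genes differed in their strong peaks. Each list was cut into 5 equal strength groups by −log10 p. In the strongest control group, 91.3% of 172 long-gene peaks were overlapped by an NKAP KD peak, against 99.1% of 935 in shorter genes (difference −7.87, −13.1 to −4.40). In the next group the shares were 64.0% of 361 and 77.1% of 1654 (difference −13.2, −18.6 to −7.94). In the 3 weaker groups the intervals of the difference took in 0, with long-gene shares of 13.8%, 22.5% and 34.9%. In an alternative, the estimated summit reads and background of each control peak were scaled to the depth of the knockdown. Peaks that then fell below the lowest NKAP KD −log10 p were dropped. The others kept their full-depth widths, and the groups were cut again by the deposited −log10 p. There the middle group differed too, by −6.23 points (−11.0 to −1.29). The 2 stronger groups differed by −13.5 points (−19.1 to −8.18) and, in the strongest, −7.79 points (−13.4 to −4.18). In the NKAP KD list, the middle group differed most, with 75.9% in long genes and 85.3% in shorter genes (difference −9.41, −15.1 to −4.35). In the fourth NKAP KD group the shares were 94.4% and 97.2% (difference −2.84, −7.10 to −0.0782). All 70 long-gene peaks of the strongest NKAP KD group were overlapped, next to 99.9% of 673 in shorter genes (difference 0.149, −5.06 to 0.837). Without the 12 genes with the most peaks, a setting chosen after the data were seen, the control differences were −7.99 points (−13.7 to −4.29) in the strongest group and −12.1 points (−17.8 to −6.60) in the next.

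**Figure D1:**
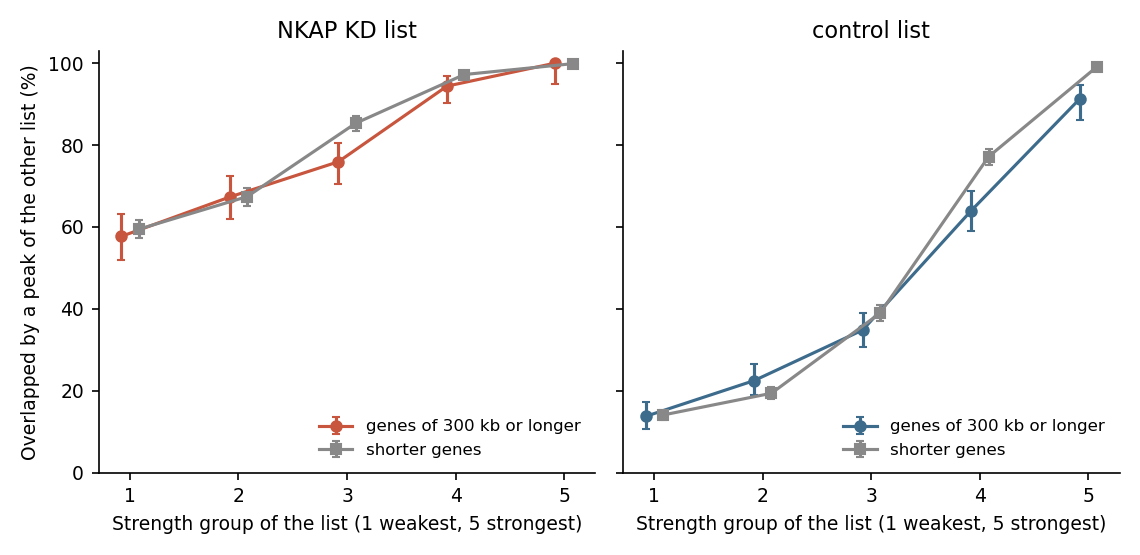
Share of peaks overlapped by a peak of the other list (%), by strength group of the list, with NKAP KD left and control right. Coloured circles are interior peaks of genes of 300 kb or longer, grey squares those of shorter genes, and bars are 95% Wilson intervals. In the control list the circles fall below the squares in groups 4 and 5 (64.0% against 77.1%, and 91.3% against 99.1%).

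The strong control peaks that were missing from the NKAP KD list were spread over many genes. Of 533 control peaks in the upper 2 strength groups, 145 had no NKAP KD counterpart. The overlapped shares in these groups were 64.0% and 91.3%, next to 77.1% and 99.1% in shorter genes. The 145 peaks lay in 96 genes, with at most 5 in any of them. The median distance to the nearest NKAP KD peak was 39959 bp, and 110 lay over 5 kb from one. The highest of these folds was 23.4 in PTPRN2, a phosphatase-like protein of secretory granules, at a control peak of only 354 bp with 69 reads. The nearest NKAP KD peak was 52625 bp away. JAZF1, a zinc finger protein, had a control peak of fold 22.5 with 59 reads, 2486 bp from the nearest NKAP KD peak, at the start of a noncoding RNA. IQCJ-SCHIP1, a readthrough gene that spans SCHIP1, had one of fold 22.4 with 47 reads, with no NKAP KD peak within 301857 bp. CAST (calpastatin, the inhibitor of calpain proteases) and TENM2 followed with control folds of 16.2 and 15.9.

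Among the NKAP KD peaks without a control counterpart, the highest folds were lower than among the unmatched control peaks. They were 11.4 in NAV2 (24 reads), 10.8 in MYO3B (a class III myosin, 21 reads), 10.6 in KCNQ3 (a voltage-gated potassium channel, 31 reads), 10.3 in DPP6 (an auxiliary subunit of potassium channels, 20 reads) and 10.1 in ABCA13 (a lipid transporter, 22 reads). The DPP6 peak lay 1020 bp from a control peak, while the KCNQ3 peak lay 159204 bp from one. The typical unmatched peak had a median fold of 6.13 in the NKAP KD list and 5.68 in the control list, and a median of 14 summit reads in each. These values are not scaled for depth and lie near the calling limit of both lists, so they do not compare strength. The median fold of matched peaks was 7.37 in NKAP KD and 7.97 in control.

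Over all peaks inside long genes the median width was 477 bp in the NKAP KD list and 541 bp in the control list. Where both lists had a peak at the same place, the NKAP KD peak was usually the narrower one. In 818 NKAP KD peaks that overlapped a control peak of the set, the NKAP KD peak was narrower in 681 (83.3%; 81.9% over all overlapping NKAP KD peaks and 81.4% inside shorter genes), so long genes did not stand apart. Over these 818 pairs, in which 699 control peaks took part and a wide one can count several times, median widths were 577.5 bp in the NKAP KD list and 1201 bp in the control list, with medians of 18 NKAP KD and 24 control summit reads. The summits lay a median of 183.5 bp apart, and within 100 bp in 253 pairs (30.9%). Peaks of 5 kb or more were 1 in the NKAP KD list and 16 in the control list.

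Long genes carried fewer interior peaks per length than shorter genes in both lists. NKAP KD and control densities per Mb of interior were 11.7 and 20.4 in genes under 100 kb, 5.03 and 7.91 from 100 to 300 kb, 3.36 and 5.93 from 300 to 500 kb, 2.56 and 3.91 from 500 kb to 1 Mb, and 1.32 and 2.68 in genes of 1 Mb and over. A peak inside genes of several length classes was counted once in each of those classes. The share of genes with at least 1 interior peak went the other way, with 18.2% (NKAP KD) and 25.5% (control) of genes under 100 kb and 62.3% (NKAP KD) and 75.4% (control) of genes of 1 Mb and over. The ratio of NKAP KD to control peaks ranged from 0.492 to 0.654 over the 5 length classes, without a steady trend.

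**Figure D2:**
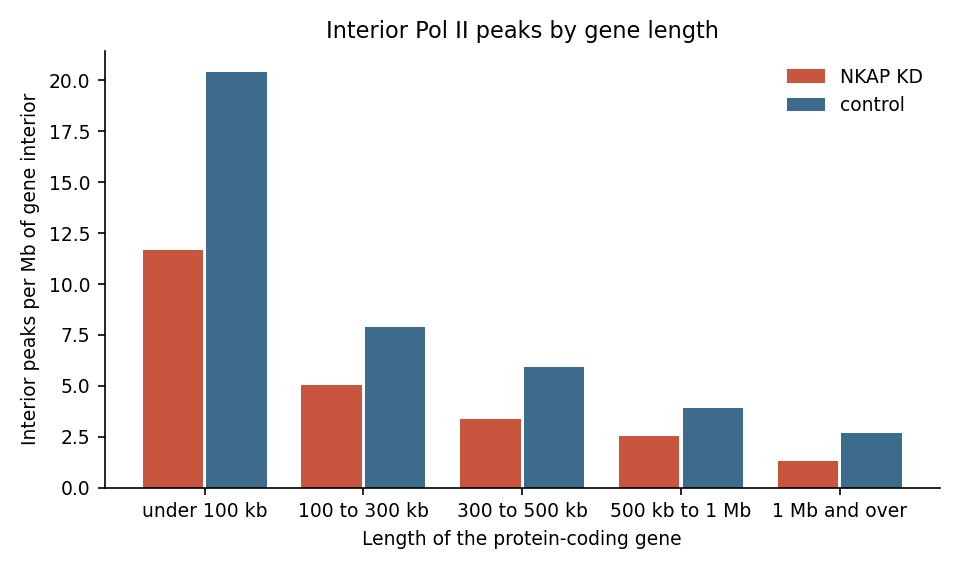
Interior peaks per Mb of gene interior, by length of the protein-coding gene, with NKAP KD bars left of control bars. Density falls with length in both lists, to 1.32 per Mb in the NKAP KD list and 2.68 per Mb in the control list at 1 Mb and over, and the control bar is the higher in every class.

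Along the genes the peaks were spread almost evenly apart from the stretch next to the start. A strand was known for 623 of the 771 genes, which held 955 NKAP KD and 1611 control peaks. The first of 10 equal parts of the gene held 13.0% in each list, and the other parts held between 7.85% and 11.6% of NKAP KD and between 8.50% and 10.8% of control peaks. From 1000 bp to 20 kb after the start the density was 6.51 per Mb in the NKAP KD list and 10.5 in the control list. From 20 to 50 kb it was 2.84 in NKAP KD and 4.01 in control, and from 200 kb onward 2.28 in NKAP KD and 4.06 in control. The share of peaks with a counterpart, in 5 steps away from the start, was 76.6%, 69.8%, 71.2%, 76.7% and 72.7% in the NKAP KD list and 43.5%, 41.3%, 38.2%, 40.4% and 36.6% in the control list. The control share was thus highest within 20 kb and lowest from 200 kb onward, but the intervals of these steps overlapped (35.1 to 52.3% and 33.5 to 39.7%).

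Annotated start sites within the genes stood out in both lists. Only 0.773% of the interior of the 623 genes lay within 1000 bp of an annotated start, yet 154 of 955 NKAP KD peaks (16.1%) and 171 of 1611 control peaks (10.6%) had their summit there. In 112 NKAP KD and 116 control peaks the start was one of the host gene, an alternative promoter. In 38 NKAP KD and 49 control peaks it belonged to a noncoding gene, and in 4 NKAP KD and 6 control peaks to another protein-coding gene. Peaks at starts were stronger, with median folds of 7.97 against 6.73 elsewhere in the NKAP KD list, and 8.87 against 6.07 in the control list. Of the 50 highest folds, 26 in the NKAP KD list and 23 in the control list were at a start.

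Peaks at start sites were found in both lists more often than peaks elsewhere. Of the NKAP KD peaks, 90.3% at a start (interval 84.6 to 94.0%) and 70.3% elsewhere (67.0 to 73.3%) were overlapped by a control peak, a difference of 19.97 points (13.5 to 24.9). Of the control peaks, 71.9% at a start (64.8 to 78.1%) and 34.2% elsewhere (31.8 to 36.7%) were overlapped by an NKAP KD peak, a difference of 37.7 points (30.1 to 44.3). The share was higher at starts in each control strength group. In the weakest it was 38.9% of 18 peaks at a start and 13.5% of 325 elsewhere, in the fourth it was 93.0% of 43 and 60.5% of 258, and in the strongest it was 96.2% of 52 and 90.2% of 92.

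**Figure D3:**
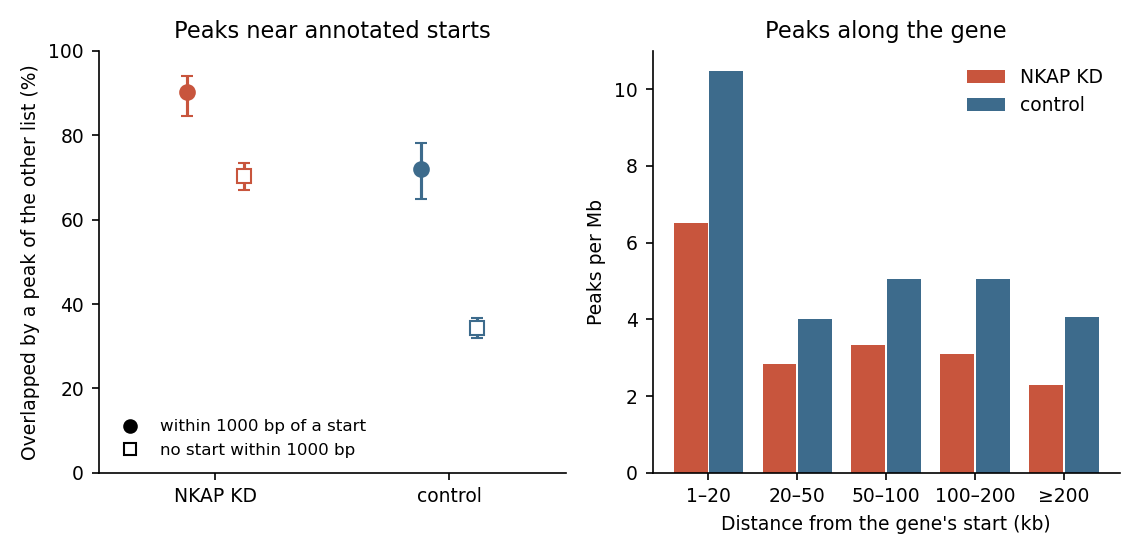
Left, share of peaks inside long genes that a peak of the other list overlaps (%), for peaks within 1000 bp of an annotated start (filled circles) and the rest (open squares), with 95% Wilson intervals. Right, peaks per Mb by distance from the gene's start. Peaks at starts are overlapped more often in both lists (90.3% against 70.3% in NKAP KD, 71.9% against 34.2% in control), and density is highest in the first 20 kb.

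Counted by site, 696 internal starts lay in 325 of the genes. Both lists had a peak at 113 of them (16.2%), the NKAP KD list alone at 19, the control list alone at 38, and neither at 526. The same counts over all 34961 starts are not given here, so these counts do not show whether internal starts differ from other starts. Starts close to each other were counted separately and can share a peak, and the 113 lay in 76 genes. The starts behind these counts and the shares below are therefore not independent. Starts with a peak in both lists had a median of 65.3% G and C in their 300-base window, and 59.3% of them held a GC box. For starts with a peak in neither list these were 47.0% and 18.8%, and for all 34961 start windows 58.7% and 45.0%. The AP-1 site was in 12.2% of all 696 windows and in 12.7% of those with a peak in neither list. It was in 0 of 19 windows with an NKAP KD peak alone, 9 of 38 (23.7%) with a control peak alone and 9 of 113 (7.96%) with a peak in both, which are small counts.

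Some genes without a peak at their ends had peaks at such internal starts. Of the 771 genes, 338 had no peak at either end in either list, and they still held 441 NKAP KD and 729 control interior peaks. Of these genes, 166 had an internal start, and 42 (25.3%) had a peak at one in both lists, close to the 76 of 325 (23.4%) over all long genes with internal starts. Some of these starts lay just past the 1000 bp margin at the gene's end, such as 1360 bp in for ZNF423 and 1574 bp in for HHAT. The 42 genes included ROBO1, a receptor of axon guidance. It had folds of 12.6 in the NKAP KD list and 25.2 in the control list at a start 748539 bp into the gene. RBPJ, the DNA-binding factor of Notch signalling, had 9.76 in NKAP KD and 15.9 in control at a start 214297 bp in. TCF4, a basic helix-loop-helix factor, had 12.8 in NKAP KD and 15.4 in control at a start 46146 bp in. ZFHX3, a zinc finger homeobox factor, had 9.90 in NKAP KD and 24.3 in control at a start 843802 bp in. Its start 832909 bp in went the other way, with 12.4 in NKAP KD and 6.34 in control. Starts of PDE11A (13.0 in NKAP KD and 6.52 in control) and DPP10 (7.94 in NKAP KD and 5.68 in control), also among the 42 genes, had the higher fold in NKAP KD too. The ROBO1, RBPJ, TCF4, ZFHX3, NAV2, PALLD, TENM2 and TENM3 starts were picked from the 42 genes after their values were seen. The NKAP KD to control ratio of interior peaks was 0.605 in the 338 genes, and 0.577 in the 349 genes that had a peak at an end in each list. It was 0.857 in the 28 genes with one in NKAP KD alone and 0.481 in the 56 with one in control alone.

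At the level of genes, 374 of the 529 genes with any interior peak had one in both lists. In the NKAP KD list alone there were 36 (6.81%; 9.26% of all genes of at least 5000 bp with an interior summit), and in the control list alone 119 (22.5%; 32.5% of all such genes). Peaks covered 0.851 Mb of long-gene interior in the NKAP KD list and 1.80 Mb in the control list, a ratio of 0.473, or 0.196% of the interior in NKAP KD and 0.414% in control. In genes of 5 to 300 kb the ratio was 0.515. Cover was lower in NKAP KD by 2-fold or more in 313 of 556 genes with cover (56.3%; 55.9% over all genes of at least 5000 bp) and higher by 2-fold or more in 48 (8.63%; 7.46% over all genes). Both shares were close to those over all genes, so by this measure long genes did not stand apart. Cover in a gene can include peaks at the ends of genes nested in it.

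**Figure D4:**
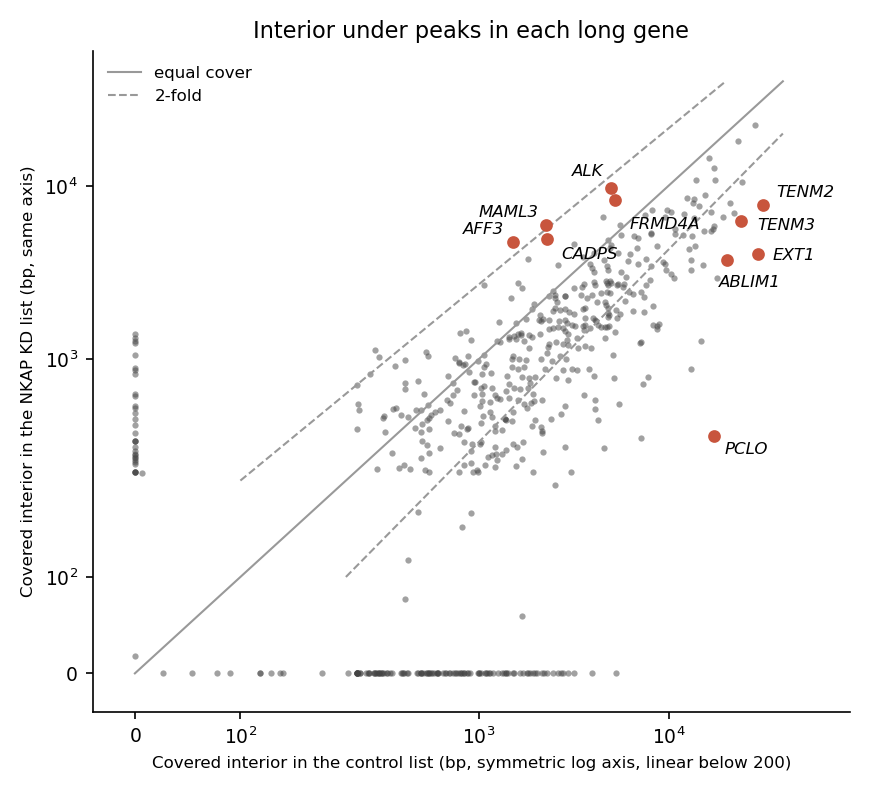
Interior under peaks (bp) in each of the 556 long genes with cover in either list, NKAP KD on the vertical and control on the horizontal axis, both symmetric log axes that are linear below 200 bp. The solid line is equal cover and the dashed lines 2-fold. Most genes fall below the line, and the red points are the 5 genes with the largest decrease, such as EXT1 and PCLO, and the 5 with the largest increase, such as ALK and MAML3.

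The peaks gathered in a limited number of genes. The 20 richest genes of each list held 18.1% of NKAP KD and 19.5% of control peaks. There were 10 or more peaks in 11 genes of the NKAP KD list and in 41 of the control list, and a single peak in 169 genes of the NKAP KD list and 151 of the control list. Neighbouring peaks of a gene were a median of 20114 bp apart in the NKAP KD list and 12666 bp apart in the control list, and 37.2% of NKAP KD and 39.7% of control gaps were under 5 kb.

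Among genes of matrix and heparan sulfate synthesis, EXT1, a glycosyltransferase that extends heparan sulfate chains, had the most peaks of all. It held 6 in the NKAP KD list and 36 in the control list, and 4067 bp of its interior were covered in NKAP KD and 29612 bp in control. The 6 NKAP KD folds were between 4.27 and 6.11, with a median of 5.32. The 36 control folds were between 3.01 and 9.79, with a median of 5.20, and both medians were below those over all long genes (6.90 in NKAP KD and 6.22 in control). Overlapped were 5 of the 6 NKAP KD peaks (73.7% over all long genes, 82.8% of all NKAP KD peaks). Of the 36 control peaks, 4 were overlapped (37.7% over all long genes, 54.2% of all control peaks). Of the gaps between the control peaks of EXT1, 20 were under 5 kb. The 30 long genes of this list held 63 NKAP KD and 108 control peaks, and cover was lower by 2-fold or more in 8 of 21 genes with cover (38.1%; 55.9% over all genes of at least 5000 bp) and higher in 1 (4.76%; 7.46% over all genes). ADAM12, a metalloprotease, had 5 NKAP KD and 10 control peaks. THSD4, a matrix protein, had 9 NKAP KD and 5 control peaks. NAV2, listed here although it acts in axon growth, had 7 NKAP KD and 10 control peaks.

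The 4 teneurins, transmembrane adhesion proteins, differed among themselves. TENM2 had NKAP KD folds of 6.05, 7.91, 5.23, 7.66, 9.88, 7.14, 7.05 and 5.06 along the gene, and 26 control peaks with folds between 4.14 and 18.1. Its covered interior was 7738 bp in the NKAP KD list and 31594 bp in the control list. TENM3 had 8 NKAP KD peaks over 6238 bp and 22 control peaks over 23932 bp. TENM4 had 4 peaks in each list and TENM1 had none in either list. Median folds were 7.09 in NKAP KD and 6.78 in control for TENM2, and 6.45 in NKAP KD and 6.54 in control for TENM3.

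Genes of the cytoskeleton and cell junctions were among the densest lists, with 5.25 peaks per Mb in NKAP KD and 8.51 in control, next to 4.71 in NKAP KD and 12.2 in control for the teneurins and 2.60 in NKAP KD and 4.43 in control over all long genes. TRIO, a large protein of cytoskeletal signalling, had 12 NKAP KD and 27 control peaks. The first NKAP KD peak lay 14031 bp and the first control peak 2975 bp into the gene. FRMD6, a FERM-domain protein upstream of Hippo signalling, had 19 peaks in each list. Of these, 16 NKAP KD peaks were overlapped (73.7% over all long genes, 82.8% of all NKAP KD peaks). Of its control peaks, 13 were overlapped (37.7% over all long genes, 54.2% of all control peaks). Its highest folds were 21.3 in the NKAP KD list and 29.5 in the control list. DST (dystonin) and MACF1, both large linkers of actin and microtubules, had 7 NKAP KD and 21 control peaks in the first and 10 NKAP KD and 12 control peaks in the other. ABLIM1, an actin-binding LIM protein, had 5 NKAP KD peaks over 3751 bp and 16 control peaks over 20404 bp. Over this list, cover was lower by 2-fold or more in 21 of 39 genes (53.8%; 55.9% over all genes) and higher in 2 (5.13%; 7.46% over all genes).

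**Figure D5:**
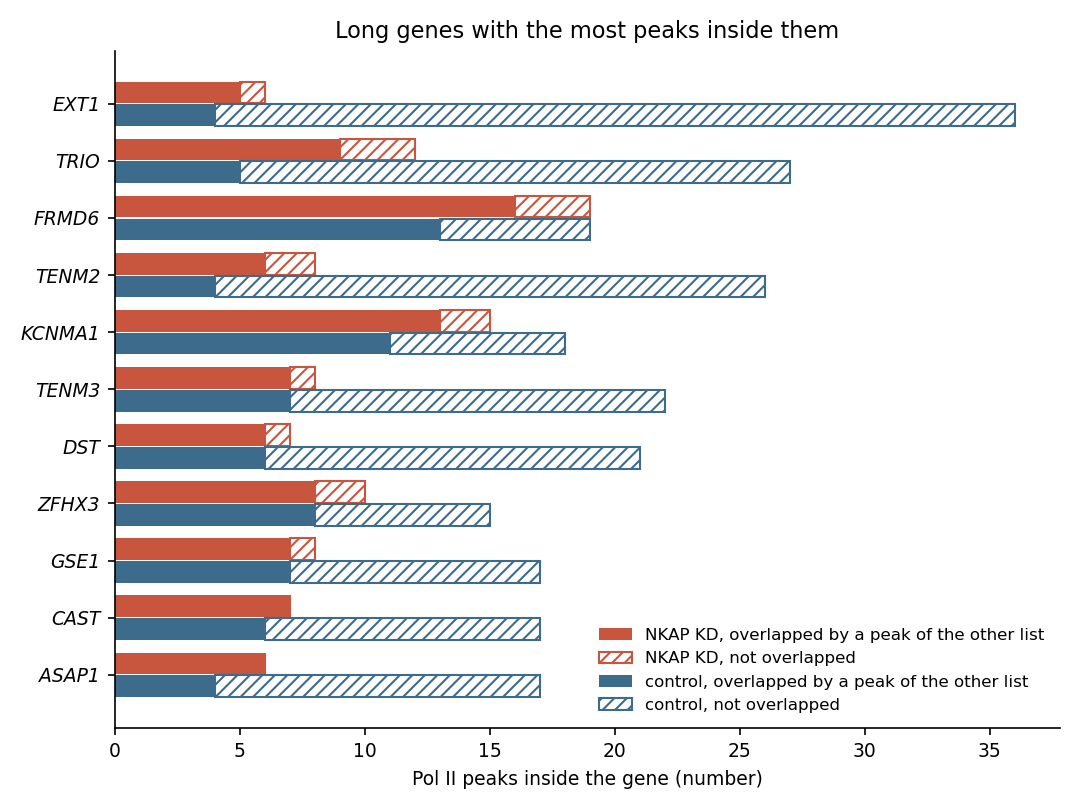
Number of Pol II peaks inside 11 of the 12 long genes with the most, NKAP KD above control in each pair, with the filled part overlapped by a peak of the other list and the hatched part not. EXT1, TENM2 and TENM3 have far more control than NKAP KD peaks (36 against 6 in EXT1), whereas FRMD6 has 19 in each.

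Transcription and chromatin genes held 118 NKAP KD and 179 control peaks, and 35 of the 40 genes had one in both lists. ZFHX3 had 10 NKAP KD and 15 control peaks, and its NKAP KD peaks were confined to 809343 to 843730 bp from the start, whereas its control peaks reached from 240173 to 964065 bp. MAML2, a Notch coactivator, had 7 NKAP KD and 8 control peaks, and FOXP1, a forkhead repressor, 4 NKAP KD and 10 control peaks. ARID1B, a subunit of the BAF remodelling complex, held the highest control fold, 45.4 with 118 reads, at chr6:157020230-157022751. The NKAP KD peak there had a fold of 26.3 with 84 reads and a summit 24 bp away. Neither lay within 1000 bp of an annotated start. Cover was lower by 2-fold or more in 21 of 38 genes (55.3%; 55.9% over all genes) and higher in 1 (2.63%; 7.46% over all genes).

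Kinase, phosphatase and second messenger genes held 80 NKAP KD and 141 control peaks, with cover lower by 2-fold or more in 16 of 30 genes (53.3%; 55.9% over all genes) and higher in 5 (16.7%; 7.46% over all genes). Of the protein kinase C genes, PRKCE had 6 NKAP KD and 16 control peaks and PRKCA 8 NKAP KD and 10 control peaks. The 42 synaptic and axon guidance genes, with a mean length of 1016 kb, held 66 NKAP KD and 110 control peaks. That was 1.55 per Mb in NKAP KD and 2.58 in control, next to 2.56 in NKAP KD and 3.91 in control for genes of 500 kb to 1 Mb and 1.32 in NKAP KD and 2.68 in control for longer ones. Cover was lower by 2-fold or more in 19 of 28 (67.9%; 55.9% over all genes) and higher in 3 (10.7%; 7.46% over all genes). KCNMA1, the pore of the BK potassium channel, had 15 NKAP KD and 18 control peaks. NTM, an adhesion protein of neurites, had 3 NKAP KD and 13 control peaks, and NRG3, a neuregulin, 3 NKAP KD and 8 control peaks. DLGAP1 had 8 NKAP KD and 9 control peaks. Its highest control fold of 31.9, with 126 reads, was away from annotated starts and was overlapped. PCLO, a scaffold of the presynaptic active zone, had 1 NKAP KD peak of fold 6.05 and 14 control peaks with folds up to 15.4, and 363 bp were covered in NKAP KD and 17342 bp in control.

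Genes at common fragile sites, with a mean length of 1317 kb, held 1.14 peaks per Mb in NKAP KD and 2.12 in control, next to 1.32 in NKAP KD and 2.68 in control over all genes of 1 Mb and over. Of the 24 genes, 14 had a peak in both lists, 0 in the NKAP KD list alone, 4 in the control list alone and 6 in neither. Over all 771 long genes these counts were 374, 36, 119 and 242. Of long genes with an interior peak, 6.81% had one in NKAP KD alone and 22.5% in control alone. Over all genes of at least 5000 bp with an interior summit these shares were 9.26% and 32.5%. Cover was lower by 2-fold or more in 11 of 19 genes (57.9%; 55.9% over all genes) and higher in 0 (7.46% over all genes). LPP, a focal adhesion LIM protein, had 4 NKAP KD and 10 control peaks, and DAB1, an adaptor of reelin signalling, 2 NKAP KD and 9 control peaks. CDH13 (T-cadherin) had 5 in each list, and DPYD, which degrades pyrimidines, 2 NKAP KD and 7 control peaks. Trafficking and ubiquitin genes held 41 NKAP KD and 60 control peaks, with cover lower by 2-fold or more in 12 of 18 (66.7%; 55.9% over all genes) and higher in 2 (11.1%; 7.46% over all genes). ASAP1, which acts on Arf GTPases, had 6 NKAP KD and 17 control peaks, and GPHN (gephyrin) 4 NKAP KD and 9 control peaks. NEDD4L, a ubiquitin ligase, had 8 NKAP KD and 4 control peaks, and HECW1 4 NKAP KD and 5 control peaks. The 7 RNA-binding genes held 7 NKAP KD and 20 control peaks, and cover was lower by 2-fold or more in the 5 genes that had any (55.9% over all genes), too few to set them apart. Of these regulators of mRNA, MSI2 had 3 NKAP KD and 4 control peaks, RBMS3 1 NKAP KD and 6 control peaks, and CELF4 1 NKAP KD and 4 control peaks.

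The longest genes with a peak in both lists were RBFOX1, a splicing regulator of 2473620 bp, DLG2, a synaptic scaffold of 2173362 bp, and MACROD2, an ADP-ribose hydrolase of 2057682 bp. RBFOX1 had folds of 5.04 and 7.18 in the NKAP KD list and 5.27, 7.32 and 6.07 in the control list. DLG2 had 4 peaks in each list and MACROD2 2 NKAP KD and 6 control peaks, with highest folds of 8.22 in NKAP KD and 9.80 in control for MACROD2.

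Among the 12 genes with the most peaks not placed so far, GSE1, a coiled-coil protein, had 8 NKAP KD and 17 control peaks, and CAST 7 NKAP KD and 17 control peaks. Cover was higher in the NKAP KD list in 93 of the 556 genes with cover, and the 5 with the largest increase in bp were as follows. ALK, a receptor tyrosine kinase, had 9681 bp covered in the NKAP KD list and 4998 bp in the control list, from 8 NKAP KD and 9 control peaks. MAML3, a Notch coactivator, had 5908 bp from 7 NKAP KD peaks and 2277 bp from 2 control peaks. AFF3, a nuclear factor of the AF4 family, had 4722 bp from 5 NKAP KD peaks and 1516 bp from 3 control peaks. FRMD4A, a scaffold of cell polarity, had 8 peaks in each list, over 8271 bp in NKAP KD and 5205 bp in control. CADPS, a priming factor of vesicle release, had 4963 bp from 8 NKAP KD peaks and 2291 bp from 4 control peaks. In MAML3 the NKAP KD folds were between 4.65 and 14.4, and its 2 control peaks had 5.60 and 11.2.

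Of the 5 highest NKAP KD folds, those not yet given were 32.8 in ANXA8, 25.4 at the start region of ARID1B and 24.7 in ZFAT, a zinc finger factor, where the control fold was 26.3. ANXA8 (annexin A8) has near-identical copies on chromosome 10, so its value is uncertain. The remaining high control folds were 36.4 at the SCHIP1 start inside IQCJ-SCHIP1, where the NKAP KD fold was 24.5, and 31.9 at a start of ACYP2 (acylphosphatase 2), where it was 20.9.

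Chromosome X held very few peaks of this kind. Its 32 long genes had 3 NKAP KD and 21 control peaks, a ratio of 0.143, against 0.591 on the autosomes and 0.677 over all 551 NKAP KD and 814 control peaks of chromosome X. Of the long-gene peaks there, 1 in each list was overlapped. The shares over all peaks of chromosome X were 86.6% in NKAP KD and 56.6% in control. The 3 NKAP KD peaks lay in 2 genes, so the ratio rests on small counts.

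MicroRNA hairpins inside the genes were rarely under a peak. Of 160 hairpins, NKAP KD peaks touched 3 and control peaks 4. MIR199A2 at chr1:172144535-172144644, read against DNM3 (dynamin 3), lay under peaks of fold 6.33 with 15 reads in the NKAP KD list and 16.3 with 34 reads in the control list. Its mature forms are shown with the seed, bases 2 to 8, in capitals (RefSeq, GRCh38.p14, chromosome 1, − strand).
hsa-miR-199a-5p: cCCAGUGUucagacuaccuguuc
hsa-miR-199a-3p: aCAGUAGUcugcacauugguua
MIR583 in CAST lay under peaks of fold 9.03 in NKAP KD and 13.9 in control, MIR4466 in ARID1B under 25.4 in NKAP KD and 28.4 in control, and MIR3914-2 in GALNT17 under 7.18 in the control list alone. These folds are values at the summits, which lay outside the hairpins. The distance was 617 bp in NKAP KD and 1730 bp in control for MIR4466, and 773 bp in control for MIR3914-2.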

How the data were processed

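Tools named in the submitters' processing notes are MACS2 2.1.0, Bowtie 1.1.2, Trimmomatic 0.33 and bcl2fastq 2.17, with build hg38. No source used here gives their settings or the library that served as background. Each deposited list holds the peaks of 1 library. The authors' deposited columns give position, a score, a fold enrichment at the summit, −log10 p, −log10 q and the summit's place. They served here to describe peaks, and to rank or filter them inside 1 list. Folds and summit reads of the 2 lists were also set side by side, without scaling for depth. Fold and −log10 p together were fitted with a whole number of reads at each summit. The fit matched the deposited −log10 p within 0.01 for 99.99% of NKAP KD and 99.9% of control peaks. From these fits the relative depths were estimated.

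Only chromosomes 1 to 22 and X entered, and 1526 NKAP KD (5.47%) and 2218 control peaks (5.75%) on other sequences were left out. Genes were the 19974 protein-coding genes of RefSeq's GRCh38.p14 table. Strand and start sites came from RefSeq start windows, which matched 623 of the 771 long genes. Peaks that shared at least 1 bp were called overlapping. Shares have 95% Wilson intervals and differences of shares Newcombe intervals. Covered interior past 2-fold was counted in genes of at least 5000 bp. The code was tested on simulated peaks. Python 3.11.15, pandas 2.3.3, numpy 2.4.6, scipy 1.17.1 and matplotlib 3.10.9 were used.

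The members and gene lists were chosen with earlier results of these data known. Named genes were the 12 with the most peaks, the 5 with the largest decrease and the 5 with the largest increase of covered interior, the hosts of the 5 highest folds of each list and of the 5 highest without a counterpart, the 4 richest of each gene list, the teneurins, the 3 longest with a peak in both lists, and NKAP. A gene under this rule is not reported here. Alternatives were a wider margin, stricter or equal-sized lists, a control list cut by summit reads scaled to the knockdown depth, longer genes, noncoding gene ends and a reciprocal overlap. Leaving out genes and keeping 1 peak per gene were added after seeing the data.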

Additional observations from a re-analysis of the deposited data

How the results depend on the processing

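Of 58 alternative values, 40 stayed within counting error or within 1.5 times. The ratios stayed below 1 in all alternatives run, but the control difference to shorter genes, whose reported interval took in 0, was between −13.6 and 1.38 points. With equal numbers of strongest peaks in both lists, the ratio of peak counts was 0.848, 66.3% of NKAP KD and 47.7% of control peaks were overlapped, the control difference to shorter genes was −3.81 points, and 57 genes had a peak in the NKAP KD list alone. With the strongest 10000 peaks these became 0.907, 67.5%, 59.3% and −13.6 points, and 46 genes had a peak in the control list alone. With the control list cut by summit reads scaled to the knockdown depth, at unchanged peak widths, the ratio was 0.637 and 39.98% of control peaks were overlapped. In genes of at least 500000 bp, 50 genes had a peak in the control list alone and 16 in the NKAP KD list alone, from fewer genes. A reciprocal overlap of at least 50% of both peaks left 34.2% and 20.2%. With only the strongest peak of each gene, 79.8% of NKAP KD and 60.4% of control peaks were overlapped. The ratio of covered interior stayed between 0.468 and 0.545. It does not use noncoding ends, so that alternative gave it no value. The cause of these shifts was not tested. No paired analysis was possible because the labels carry no replicate numbers and each group has 1 ChIP library. Peaks at the calling limit rest on 8 summit reads, so weak peaks limit every share.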
